A study of Mus musculus with 4 samples.

Results

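Immediate early genes are transcribed within minutes of a growth factor signal, without new protein synthesis, and growth factor feedback genes switch that signal off again. The group described here holds 10 such serum response genes, listed by name. They are the transcription factors Egr1, Fos, Fosl2, Jun, Myc and Klf6, the phosphatases Dusp1 and Dusp6, and Phlda1 and Ier3. The array carried probes named for 9 of the 10 among 12347 named genes, and 8 had a probe with a value on all 4 arrays, among 4754 such genes. Myc was measured on fewer arrays, and Fos was not analysed here.

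NIH 3T3, a line of mouse fibroblasts, was profiled on 4 two-colour oligonucleotide arrays. On 2 arrays the knockdown cells carried siSelT-1, a construct directed at nucleotides 205 to 224 of the Selt mRNA, and on 2 they carried siSelT-5, directed at nucleotides 971 to 989. Selt, now named Selenot, encodes selenoprotein T, a thioredoxin-like protein of the endoplasmic reticulum. On every array the knockdown RNA was set against RNA of NIH 3T3 cells with the empty pU6-m3 vector. All cells, the vector cells included, were stable transfectants held in DMEM with 150 µg/ml hygromycin B, 10% FBS, an antibiotic-antimycotic mix and 100 nM sodium selenite. Whether a line was 1 clone or a pool is not given in the sources used here. The replicates of a construct came from different cultures taken at different times. The values therefore describe cells growing in serum, and the labels name no starvation or serum pulse.

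Each value is a log ratio of the 2 channels of an array, read here as log2 and, by the titles' wording and the labelled dyes, as likely knockdown over vector. If the ratio ran the other way, every sign below would turn. Dyes were never swapped: knockdown RNA was always in Cy5, and a dye effect of a gene stays in its ratio against vector but drops out of the difference between constructs. No array compared vector cultures with each other, so the vector's own spread was not measured, and the labels do not say if 1 vector RNA served several arrays. The 2 siSelT-1 arrays held 7689 and 9232 values and the 2 siSelT-5 arrays 20268 and 18361. The 7038 probes with a value on every array had medians above 0, by a mean of 0.14 on siSelT-1 arrays, 0.39 on siSelT-5 arrays and 0.27 over both. Values called centred below have each array's own median of those probes subtracted. Selenot itself was not analysed here, as 0 probes bore its name. Ratios give no absolute level by which to check the cell type. Of 12 fibroblast markers 8 were tested, and with both constructs 4 rose and 3 fell (centred, 2 higher and 4 lower). Over all genes tested, 45.7% were called higher and 8.04% lower (centred, 20.5% and 21.9%). All 3 endothelial markers tested of 6 listed rose with both constructs, by 0.70 to 0.72 (limma adjusted p from 0.00193 to 0.00569). Centred, they were at 0.43 to 0.46 and all 3 were called higher. The macrophage marker Lyz2 (1 tested of 6) was at -0.20 and did not pass (centred, -0.47 and called lower). None of 5 epithelial markers was tested. On siSelT-5 arrays only, the macrophage markers Cd68 and Itgam averaged 0.41 and 0.54, the endothelial Tek -1.22 and the epithelial Cdh1 -1.91. Probes measured only there had a median of -0.63, and 82.7% were below 0. Among them Cd68, Itgam, Tek and Cdh1 were at percentiles 94.3, 96.6, 19.5 and 2.48. The part of these markers in the results was not tested. In RNA of whole cultures, fewer cells expressing a gene and less RNA per cell cannot be told apart.

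Growth factor receptors signal through RAS, RAF and MEK to the kinase ERK. ERK phosphorylates ternary complex factors, which act with serum response factor (SRF) on CArG boxes in the promoters of Egr1, Fos and other early genes. EGR1 is a zinc finger activator. FOS and FOSL2 pair with JUN to form AP-1, MYC pairs with MAX to drive growth genes, and KLF6 is a Krüppel-like zinc finger factor. DUSP1 is a nuclear phosphatase that inactivates p38, JNK and ERK, and DUSP6 is a cytoplasmic phosphatase with a strong preference for ERK. Both are induced by the pathway they restrain. PHLDA1 is a pleckstrin homology-like protein induced by growth factors, and IER3 is a stress and growth factor induced protein with roles in cell survival.

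The upstream promoters of 4 members are shown. Dusp1, Dusp6 and Klf6 lay below 0 on all 4 arrays, and Fosl2, as a mean of its probes, lay above 0 on all 4. Phlda1 and Ier3 also lay above 0 on all 4 and are not shown. The sequences are the 250 bases before the annotated start, from RefSeq on GRCm38.p6. They are written 5′ to 3′ on the strand of the gene, with motif matches in capitals. Dusp1 lies at chr17:26508473-26508722 (minus strand), Dusp6 at chr10:99262981-99263230 (plus), Klf6 at chr13:5861239-5861488 (plus) and Fosl2 at chr5:32136222-32136471 (plus).
Dusp1: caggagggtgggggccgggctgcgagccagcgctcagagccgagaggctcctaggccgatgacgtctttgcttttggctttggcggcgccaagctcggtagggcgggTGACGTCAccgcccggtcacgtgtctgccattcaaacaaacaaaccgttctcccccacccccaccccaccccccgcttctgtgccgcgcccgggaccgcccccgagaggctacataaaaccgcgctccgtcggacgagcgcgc
Dusp6: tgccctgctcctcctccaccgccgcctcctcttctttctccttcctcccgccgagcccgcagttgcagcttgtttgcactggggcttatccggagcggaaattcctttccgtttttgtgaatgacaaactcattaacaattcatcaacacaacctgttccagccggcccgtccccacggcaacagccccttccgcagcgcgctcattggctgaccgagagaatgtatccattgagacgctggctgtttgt
Klf6: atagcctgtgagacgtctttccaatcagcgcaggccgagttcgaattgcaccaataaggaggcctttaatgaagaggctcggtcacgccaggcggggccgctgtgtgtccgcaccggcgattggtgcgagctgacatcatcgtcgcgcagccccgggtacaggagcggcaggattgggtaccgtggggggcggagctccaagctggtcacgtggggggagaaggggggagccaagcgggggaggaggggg
Fosl2: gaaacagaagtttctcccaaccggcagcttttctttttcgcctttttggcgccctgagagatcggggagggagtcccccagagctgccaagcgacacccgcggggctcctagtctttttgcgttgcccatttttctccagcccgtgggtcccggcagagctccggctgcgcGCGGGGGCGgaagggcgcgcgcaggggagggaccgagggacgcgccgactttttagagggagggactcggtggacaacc

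The Dusp1 window held a full cAMP response element, TGACGTCA, beginning at position -143 from the start. Such an element was found in 1.55% of the 32851 windows of the same length in the RefSeq table. The Fosl2 window held GCGGGGGCG at position -79, a match to the EGR site GCGNGGGCG, which was found in 4.70% of windows. G and C made up 68.4% of the Dusp1 window and 64.4% of the Fosl2 window, against a median of 52.4% over all windows. The shares of windows are not matched for this. In the Dusp6 and Klf6 windows none of the 6 motifs searched was found. The others were the CArG box (1.47% of windows), the AP-1 site TGANTCA (6.75%), the ETS site CCGGAA (12.0%) and TATAAA (12.4%), all searched on both strands, and the matches in these windows did not overlap. Windows of Fos, Jun and Ier3 were searched too, which makes 7 members, and of these Fos held TATAAA at position -33. A CArG box was found in 0 of the 7 windows, and so were an AP-1 site and an ETS site. These are matches of letters in a window of 250 bases and say nothing of binding. Phlda1 and Myc had no entry, and Egr1 was left out of the search of members.

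Taking both constructs together, the transcription factors did not move as a block, whereas both phosphatases fell. Egr1 and Klf6 fell by 0.51 and 0.60 on the log2 scale, Dusp1 by 0.43 and Dusp6 by 0.63. Fosl2, Phlda1 and Ier3 rose by 0.52, 0.58 and 0.29. The ratio of Jun averaged 0.03 and did not pass. With limma's moderated test at an adjusted p under 0.05 over 4754 genes, 7 of the 8 members passed, against 53.7% of all genes tested. The 3 that rose stood against a background of 45.7% of genes called higher, and the 4 that fell against 8.04% called lower. The median over the members was -0.20, against 0.25 over all genes tested.

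Among the transcription factors, Egr1 (Entrez 13653, chromosome 18, 1 probe) was at -0.97 and -0.91 on the siSelT-1 arrays, and at 0.10 and -0.24 on the siSelT-5 arrays. The siSelT-1 arrays were both low, the siSelT-5 arrays straddled 0, and the constructs did not overlap. Its mean over both constructs was -0.51 ± 0.52 (SD, n = 4 arrays; limma adjusted p = 0.00666), a ratio of 0.704, at percentile 3.87 of the genes tested. The SD is as large as the mean because the values of the constructs lay apart on these arrays. The direct test of that difference did not pass (limma adjusted p = 0.0546).

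Klf6 (Entrez 23849, chromosome 13, mean of 2 probes) was at -0.73 and -0.54 on the siSelT-1 arrays, and at -0.63 and -0.51 on the siSelT-5 arrays. As a mean of its probes it was the member with the most even values: all 4 arrays were low and the constructs overlapped. Its mean was -0.60 ± 0.10 (SD, n = 4; limma adjusted p = 0.00305), a ratio of 0.658. Both of its probes were below 0 on every array, the first at -0.78, -0.83, -0.50 and -0.93 and the second at -0.69, -0.25, -0.76 and -0.09, siSelT-1 arrays before siSelT-5 arrays. The second probe was nearer to 0 on replicate 2 of each construct. Fitted singly, it passed with neither construct (limma adjusted p = 0.162 for siSelT-1 and 0.125 for siSelT-5), though it passed for both together (0.0419). The first probe passed with each construct (limma adjusted p = 0.0348 for siSelT-1 and 0.00914 for siSelT-5).

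Jun (Entrez 16476, chromosome 4, 1 probe) was at 0.30 and 0.13 on the siSelT-1 arrays, and at -0.28 and -0.04 on the siSelT-5 arrays. The constructs lay on opposite sides of 0 and did not overlap. The mean was 0.03 ± 0.25 (SD, n = 4; limma adjusted p = 0.793), with a 95% interval of -0.18 to 0.24.

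Fosl2 (Entrez 14284, chromosome 5, mean of 3 probes) was at 0.76 and 0.65 on the siSelT-1 arrays, and at 0.32 and 0.36 on the siSelT-5 arrays. All arrays were above 0, the siSelT-1 arrays were the higher, and the constructs did not overlap. Its mean was 0.52 ± 0.22 (SD, n = 4; limma adjusted p = 0.00369), a ratio of 1.44.

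The 3 probes of Fosl2 did not behave alike. The first was at 0.96 and 0.85 on siSelT-1 arrays and at -0.08 and -0.39 on siSelT-5 arrays. The second was at 0.73 and 0.66 on siSelT-1 arrays and at 0.67 and 0.89 on siSelT-5 arrays. The third was at 0.59 and 0.45 on siSelT-1 arrays and at 0.36 and 0.58 on siSelT-5 arrays. The separation of the constructs seen in the gene's mean was thus carried by the first probe, whose siSelT-5 values alone were below 0. Which transcripts each probe reports was not tested.

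**Figure D1:**
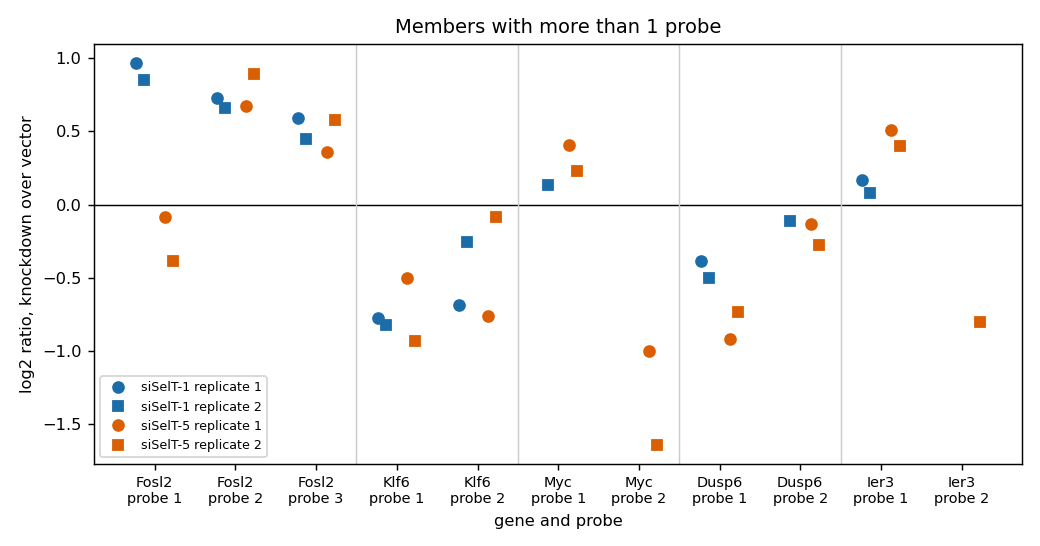
Log2 ratio of knockdown over vector for each probe of the 5 members with more than 1 probe, siSelT-1 in blue and siSelT-5 in orange, circles for replicate 1 and squares for replicate 2. A missing symbol is a missing value; the first Fosl2 probe separates the constructs while the other 2 do not, and the second probes of Myc and Ier3 carry siSelT-5 values only.

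The phosphatases were both lower in knockdown cells. Dusp1 (Entrez 19252, chromosome 17, 1 probe) was at -0.51 and -0.73 on the siSelT-1 arrays, and at -0.32 and -0.18 on the siSelT-5 arrays. All were below 0, those of siSelT-1 the lower, without overlap. Its mean was -0.43 ± 0.24 (SD, n = 4; limma adjusted p = 0.00862), a ratio of 0.740.

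Dusp6 (Entrez 67603, chromosome 10) was at -0.38 and -0.50 on the siSelT-1 arrays, and at -0.92 and -0.73 on the siSelT-5 arrays, by its probe with a value on every array. All 4 were below 0, and here the siSelT-5 arrays were the lower, again without overlap. The mean was -0.63 ± 0.24 (SD, n = 4; limma adjusted p = 0.00269), a ratio of 0.644, which made it the lowest member, at percentile 2.00 of the genes tested. The second Dusp6 probe had no value on siSelT-1 replicate 1. It was at -0.11 on the other siSelT-1 array and at -0.13 and -0.28 on the siSelT-5 arrays, below 0 throughout but nearer to it. With that probe averaged in and a value required on only 1 array of each construct, Dusp6 stood at -0.43 (limma adjusted p = 0.0123 over 6024 genes).

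Phlda1 (Entrez 21664, chromosome 10, 1 probe) was at 1.06 and 0.84 on the siSelT-1 arrays, and at 0.28 and 0.13 on the siSelT-5 arrays. All arrays were above 0, with siSelT-1 well above siSelT-5. Its mean was 0.58 ± 0.44 (SD, n = 4; limma adjusted p = 0.00368), a ratio of 1.49. Ier3 (Entrez 15937, chromosome 17) was at 0.17 and 0.08 on the siSelT-1 arrays, and at 0.51 and 0.40 on the siSelT-5 arrays. All were above 0, and siSelT-5 was here the higher, without overlap. Its mean was 0.29 ± 0.20 (SD, n = 4; limma adjusted p = 0.0246), a ratio of 1.22, close to the median of all genes at percentile 54.4.

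Ordered by their ratio over both constructs, the members ran from Dusp6 through Klf6, Egr1 and Dusp1 to Jun, Ier3, Fosl2 and Phlda1. Among the 4 lowest no neighbours differed beyond the larger SD of the pair, and neither did Fosl2 from Phlda1. The gap of 0.46 between Dusp1 and Jun was the widest. The gaps from Jun to Ier3 (0.26) and from Ier3 to Fosl2 (0.23) only just exceeded the larger SD. Klf6, Dusp1 and Dusp6 were below 0 on all 4 arrays, as were 8.60% of all genes, and Fosl2, Phlda1 and Ier3 were above 0 on all 4, as were 44.9%.

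Relative to the shared-probe median the lower members lay further from 0 and the higher ones nearer to it. Centred means were -0.77 for Egr1, -0.87 for Klf6, -0.70 for Dusp1 and -0.90 for Dusp6, and all 4 passed (limma adjusted p from 0.00430 to 0.00503). Fosl2 at 0.26 and Phlda1 at 0.31 passed as well (adjusted p = 0.0354 and 0.0225), whereas Ier3 was at 0.02 (adjusted p = 0.810). Jun was at -0.24, the opposite sign to its deposited mean (adjusted p = 0.0693). This gave 6 members called, against 42.4% of all genes, with 2 higher and 4 lower, against 20.5% and 21.9%. Egr1, Klf6, Dusp1 and Dusp6 were below the centre on all 4 arrays, as were 25.2% of genes, and no member was above it on all 4, as were 25.2%. All 7 deposited calls were lost without siSelT-1 replicate 1: 0 of 8 members and 0 of 4754 genes passed limma's test, 6 members had an unadjusted p under 0.05, and the adjusted p of the 7 ran from 0.0547 to 0.193. Without siSelT-1 replicate 2, which leaves 1 siSelT-1 array, the calls of Egr1, Fosl2, Dusp1 and Ier3 were lost.

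With siSelT-1 alone, Egr1 and Phlda1 were the members farthest from 0, in opposite directions. Egr1 fell by 0.94 and Phlda1 rose by 0.95, at percentiles 0.463 and 99.0 of the genes tested. Klf6 fell by 0.64, Dusp1 fell by 0.62 and Fosl2 rose by 0.71. These 5 of 8 members passed, against 13.7% of all genes. The 2 that rose compare with 10.3% of genes called higher and the 3 that fell with 3.37% called lower.

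In that comparison the mean of Egr1 was -0.94 ± 0.04 (SD, n = 2 arrays; limma adjusted p = 0.0294) and that of Phlda1 0.95 ± 0.15 (adjusted p = 0.0256). Fosl2 averaged 0.71 ± 0.08 (limma adjusted p = 0.0315). Klf6 averaged -0.64 ± 0.14 (limma adjusted p = 0.0338) and Dusp1 -0.62 ± 0.16 (limma adjusted p = 0.0357). Dusp6 was at -0.44 ± 0.09 and did not pass (limma adjusted p = 0.0583), although centred it was at -0.58 and did (adjusted p = 0.0435), so that centring gave 6 members called, against 8.90% of genes, with 2 higher and 4 lower, against 3.83% and 5.07%. Jun at 0.22 and Ier3 at 0.12 did not pass (limma adjusted p = 0.256 and 0.461). With either siSelT-1 array left out, so that the lone array is assumed to vary like the siSelT-5 pair, no member and no gene passed (4 members at an unadjusted p under 0.05 each time; limma adjusted p of the 5 was 0.587 without replicate 1 and 0.397 without replicate 2). With 1 siSelT-5 array left out, the spread comes from the siSelT-1 pair alone, and Dusp6 passed as well (adjusted p = 0.00734). Where a value on 1 array of each construct sufficed, only Phlda1 passed of the 5 (limma adjusted p = 0.0452 over 6024 genes), with the other 4 between 0.0502 and 0.0636.

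With siSelT-5 alone, Dusp6 and Klf6 were the members that fell, by 0.82 and 0.57. Ier3 rose by 0.45 and Fosl2 by 0.34, although centred they were at 0.06 and -0.06, and Egr1 was at -0.07. These 4 of 8 members passed, against 53.9% of all genes. The 2 that rose compare with 47.6% called higher and the 2 that fell with 6.29% called lower.

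For siSelT-5, Dusp6 averaged -0.82 ± 0.13 (SD, n = 2; limma adjusted p = 0.00333) and Klf6 -0.57 ± 0.09 (adjusted p = 0.0100). Ier3 averaged 0.45 ± 0.08 (limma adjusted p = 0.0177) and Fosl2 0.34 ± 0.03 (adjusted p = 0.0430). Egr1 at -0.07, Jun at -0.16, Dusp1 at -0.25 and Phlda1 at 0.20 did not pass (limma adjusted p = 0.667, 0.306, 0.123 and 0.194). The shift of the siSelT-5 arrays bears on this most. Centred, 5 members were called, against 39.2% of genes; none was higher, against 19.2%, and 5 were lower, against 20.0%: Egr1 at -0.46, Jun at -0.55, Klf6 at -0.96, Dusp1 at -0.65 and Dusp6 at -1.22 (limma adjusted p from 0.00645 to 0.0323). Fosl2 and Phlda1 turned sign, to -0.06 and -0.19, and Ier3 was at 0.06, with none of the 3 passing. With 1 siSelT-1 array left out, whichever it was, the calls of Fosl2 and Ier3 were lost (limma adjusted p = 0.133 and 0.0756) and those of Klf6 and Dusp6 were not. Fitted on the siSelT-5 arrays alone, whose spread was the wider (root mean square SD 0.349, against 0.164 for siSelT-1), none of the 4 passed, with Klf6 at an adjusted p of 0.0757 and Dusp6, there the mean of both probes, at 0.0938. Fosl2 was also lost without siSelT-5 replicate 2 (adjusted p = 0.0658).

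**Figure D2:**
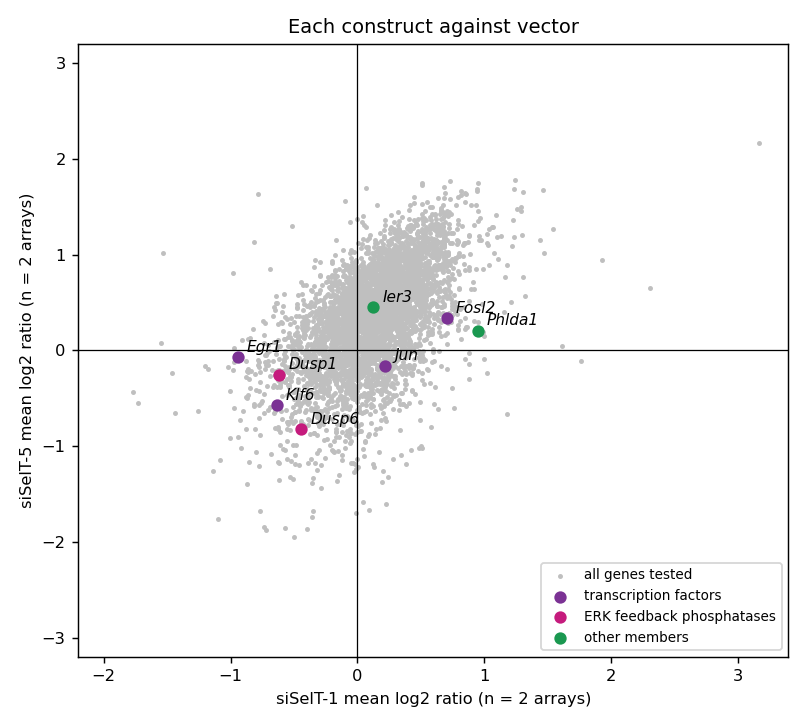
Mean log2 ratio with siSelT-1 (horizontal axis) and with siSelT-5 (vertical axis), n = 2 arrays each, for the 4754 genes tested (grey) and the 8 members (coloured by role). Klf6 and Dusp6 lie at the lower left, Egr1 and Phlda1 are the members farthest left and right, at -0.94 and 0.95 with siSelT-1 and -0.07 and 0.20 with siSelT-5, and Ier3 lies within the bulk of genes.

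The difference between the constructs was also tested directly, as siSelT-1 minus siSelT-5, in which a dye effect drops out. None of the 8 members passed with limma at an adjusted p under 0.05 over all genes, 2 had an unadjusted p under 0.05, and 3 of the 4754 genes passed (0.0631%; 0.0210% higher and 0.0421% lower, the same shares as after centring). The members nearest to the threshold were Egr1, lower with siSelT-1 by a difference of -0.87 (95% interval -1.32 to -0.43; limma adjusted p = 0.0546), and Phlda1, with a difference of 0.74 (0.33 to 1.16; adjusted p = 0.0585). On the centred values Egr1 differed by -0.62 and Phlda1 by 1.00 (limma adjusted p = 0.122 and 0.0816).

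The other estimates lay closer to 0, and their intervals included it. Klf6 differed by -0.06, with an interval of -0.47 to 0.34, so that a difference of either sign within those bounds is not shown to be absent. The differences of Fosl2, Jun and Dusp6 were 0.37, 0.38 and 0.38, and those of Dusp1 and Ier3 -0.36 and -0.33 (limma adjusted p from 0.150 to 0.189 over these 5). The arrays of the constructs did not overlap for 7 of 8 members, all but Klf6, as was so for 64.5% of all genes; centred, it was 6 members against 60.3%. By probe, the first Fosl2 probe differed by 1.14 (limma adjusted p = 0.0522 over all probes fitted), and the other 2 by -0.09 and 0.05. With 1 siSelT-5 array left out, the spread comes from the siSelT-1 pair alone, which is the tighter, and the lone siSelT-5 array is assumed to vary like it, so these calls are not independent support. In such fits Egr1 at -0.71 and Phlda1 at 0.82 passed without siSelT-5 replicate 1 (limma adjusted p = 0.0129 and 0.0102), and without siSelT-5 replicate 2, Egr1 at -1.04, Jun at 0.49 and Phlda1 at 0.67 did (adjusted p = 0.00637, 0.0490 and 0.0214).

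**Figure D3:**
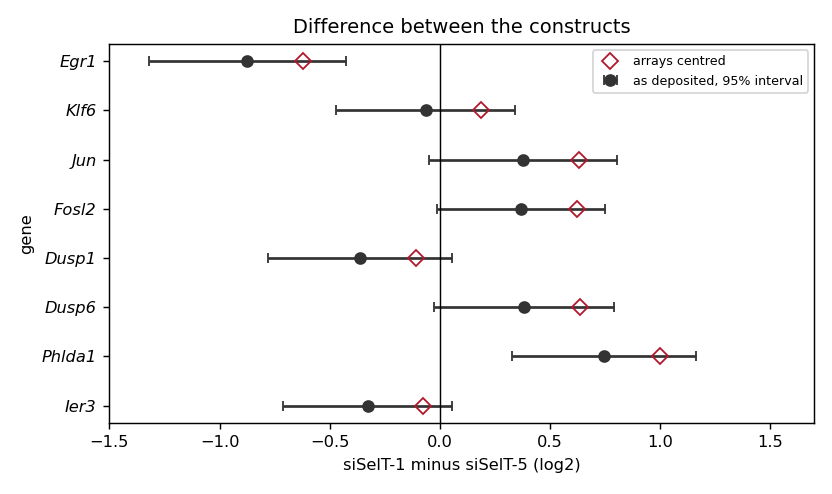
Difference in log2 ratio, siSelT-1 minus siSelT-5 (horizontal axis), for the 8 members. Black points with bars are the deposited values with their 95% interval (n = 2 arrays per construct) and open diamonds the centred values; the bars of Egr1 and Phlda1 do not reach 0, and centring moves every member to the right by the same amount.

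Values on siSelT-5 arrays only stand apart from the rest of the table. On the whole, 7460 probes had a value on both siSelT-5 arrays and on neither siSelT-1 array, and their medians were -0.61 and -0.63, far below the 0.43 and 0.36 of the shared probes on the same arrays. Among the members this touched Myc. Its second probe was at -1.001 and -1.64 on the siSelT-5 arrays, at percentiles 30.5 and 9.64 of the probes so measured. Its first probe was at 0.13 on siSelT-1 replicate 2 and at 0.40 and 0.23 on the siSelT-5 arrays. The 2 Myc probes thus lay on opposite sides of 0 on the arrays they share. For the 1524 probes with the same missing value as the first, medians were -0.06, 0.07 and 0.07 on those 3 arrays. With a value required on only 1 array of each construct, Myc averaged 0.22 over both constructs from the first probe and did not pass (limma adjusted p = 0.187 over 6024 genes). The second Ier3 probe had a value on siSelT-5 replicate 2 alone, -0.80, where the 1998 probes measured only there had a median of -1.14. It went the other way from the first Ier3 probe on that array, 0.40.

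Over all 4 arrays, the genes with the pattern closest to Egr1, by root mean square difference of log2 ratios, were Actr3 (0.122), a subunit of the ARP2/3 actin-nucleating complex, Capn6 (0.149), a calpain-family protein, and Dcn (0.153), the matrix proteoglycan decorin. Dcn was at -0.88 and -0.84 on siSelT-1 arrays and at 0.21 and 0.02 on siSelT-5 arrays. Closest to Dusp6 were Abcc1 (0.0803), a drug and glutathione conjugate exporter, Zup1 (0.0805), a deubiquitinase, and Fn1 (0.0857), fibronectin. Fn1 was at -0.24 and -0.45 on siSelT-1 arrays and at -0.93 and -0.81 on siSelT-5 arrays.

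Genes around the members in the same response were read from 7 further lists, for both constructs against vector. Of 25 other immediate early transcription factors 6 were tested, of which 1 rose and 1 fell, with a median of -0.05 against 0.25 over all genes; centred, 1 was called higher and 4 lower. Counts of this and the following lists are to be read against the 45.7% of all genes called higher and 8.04% called lower (centred, 20.5% and 21.9%). Ets2, an ETS-family factor and ERK substrate, was at 1.54 and 1.55 on siSelT-1 arrays and at 1.01 and 1.52 on siSelT-5 arrays. It was high on every array and rose by 1.41 (limma adjusted p = 0.00161). Klf4 fell by 0.25 (limma adjusted p = 0.0487), with -0.45 and -0.65 on siSelT-1 arrays and 0.12 and -0.03 on siSelT-5 arrays, a separation of the constructs like that of Egr1 in sign. Fosb, Klf10, Ier5 and Bhlhe40 were at 0.19, -0.12, -0.55 and 0.02 and did not pass.

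Of 23 other early signalling and RNA-decay genes 15 were tested, 5 rose and none fell, with a median of 0.08, a smaller share higher than the 45.7% over all genes. Gadd45a, a growth arrest gene, rose by 0.54, Mcl1, a BCL2-family survival gene, by 0.50, and Plk2, a polo-like kinase, by 0.43 (limma adjusted p = 0.00840, 0.0108 and 0.00737). The CEBP-family factor Cebpb rose by 0.32 and the kinase gene Sgk1 by 0.31. Zfp36, whose protein destabilises AU-rich mRNAs, was at -0.32 (adjusted p = 0.0502). Centred, none was called higher and 4 lower.

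Of 23 other growth factor feedback regulators 6 were tested, 2 rose and none fell, with a median of 0.28, near the 0.25 over all genes. Phlda3, which encodes an AKT inhibitor, rose by 0.48 (limma adjusted p = 0.00658), and Dusp2, a nuclear phosphatase of the same family as Dusp1, by 0.43 (adjusted p = 0.0118). Dusp2 was at 0.31 and -0.03 on siSelT-1 arrays and at 0.66 and 0.79 on siSelT-5 arrays. It thus lay high on the siSelT-5 arrays, where Dusp1 was below 0. Dusp10, Sh2b3, Errfi1 and Spred1 were at 0.26, 0.31, 0.04 and -0.05 and did not pass. Centred, none was called higher and 1 lower, Spred1 at -0.31 (adjusted p = 0.0437).

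The secreted serum response genes had the lowest median of the 7 lists: of 20 listed 6 were tested, 2 rose and 3 fell, with a median of -0.32. Thbs1, the matrix glycoprotein thrombospondin 1, fell by 1.43 and Ccn2, connective tissue growth factor, by 1.30 (limma adjusted p = 0.00161 and 0.00303). Thbs1 was at -1.13 and -1.06 on siSelT-1 arrays and at -1.43 and -2.09 on siSelT-5 arrays, low on all 4. The chemokine gene Ccl2 fell by 0.68 (adjusted p = 0.00478), while the chemokine gene Cxcl1 rose by 0.54 and Vegfa, the endothelial growth factor, by 0.67 (adjusted p = 0.00454 and 0.00208). Ccl7 was at 0.03 (adjusted p = 0.793). Centring left 2 higher and 3 lower.

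Of 22 genes of SRF and its cytoskeletal targets 15 were tested, 7 rose and 1 fell, shares near the 45.7% and 8.04% over all genes, with a median of 0.31; centred, 1 was called higher and 4 lower. Actb, cytoplasmic actin, rose by 0.53, the tropomyosin genes Tpm1 and Tpm2 by 0.56 and 0.39, and Filip1l fell by 0.52 (limma adjusted p = 0.00382, 0.00868, 0.0113 and 0.00727). Ahnak rose by 0.40, and Zyx, which encodes the focal adhesion protein zyxin, by 0.31.

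Of 38 genes from growth factor receptors to ERK 18 were tested, 10 rose and 1 fell, beside 45.7% and 8.04% over all genes, with a median of 0.35; centred, 7 were called higher and 5 lower. The receptor gene Egfr was at -0.32 and -0.25 on siSelT-1 arrays and at -1.19 and -1.21 on siSelT-5 arrays. It was below 0 on all 4, with siSelT-5 the lower as for Dusp6, and fell by 0.74 (limma adjusted p = 0.00181). The receptor genes Pdgfra and Fgfr1 rose by 0.88 and 0.62 and Rras, a RAS-family GTPase, by 0.78 (limma adjusted p = 0.00193, 0.00252 and 0.00174). The MEK gene Map2k2 and the RAS inactivator gene Nf1 rose by 0.53 and by 0.53 (adjusted p = 0.00358 and 0.00344). In the MYC network 4 of 13 genes were tested, none passed limma's test (1 at an unadjusted p under 0.05, Max at 0.24), and the median was 0.25; centred, Mxd4 was called lower at -0.42 (adjusted p = 0.0335).

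**Figure D4:**
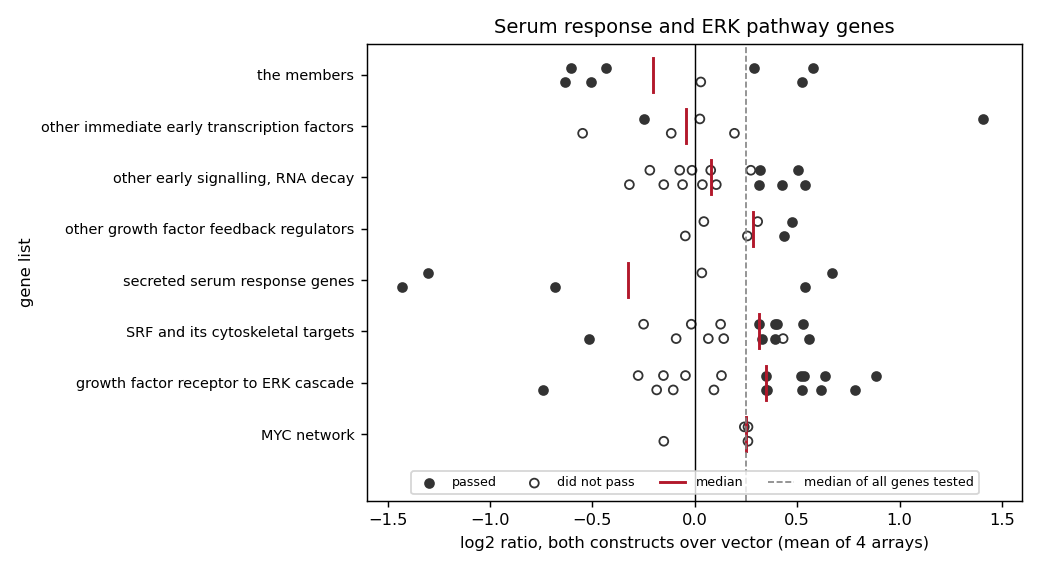
Log2 ratio over vector of both constructs together (horizontal axis, mean of 4 arrays) for each tested gene of the members and of 7 related lists. Filled points passed at an adjusted p under 0.05, red bars mark list medians and the dashed line the median of all genes tested, 0.25; the members and the secreted genes have the lowest medians, -0.20 and -0.32, and the receptor to ERK genes the highest, 0.35.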

How the data were processed

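Total RNA was copied with oligo-dT primers, coupled to Cy3 (vector) or Cy5 (knockdown) and hybridised to 4 arrays, per the labels' protocols. The deposited values are log ratios, read here as log2; the base, background correction, normalization and filter are not given in the sources used here. Of 22534 probes 18129 carry 1 gene name, 140 several and 4265 none, in a platform annotation whose symbols were checked through Entrez IDs (18041 matched, 0 changed). A gene is the mean of its single-name probes valued on all 4 arrays.

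A linear model with a mean per construct and 2 residual degrees of freedom was fitted to the 4754 genes by limma 3.58.1 (lmFit, eBayes; R 4.3.3), and p-values were two-sided and Benjamini-Hochberg adjusted over all genes. The 4 contrasts were both constructs, siSelT-1 and siSelT-5, each against 0, and siSelT-1 minus siSelT-5. The first 3 share arrays. The number of arrays limits precision. The procedure was tested on data simulated with the fitted spread of each gene, in 25 runs with 200 changed genes each. Both constructs were given the same spread. In the data siSelT-5 arrays varied more (root mean square SD 0.349, against 0.164 for siSelT-1), and 53.7% of genes were called for both constructs. The shares that follow hold for the simulated setting and may differ in these data. A change of 0.5 was recovered in 83.8% of cases for both constructs, 29.3% for siSelT-1 and 30.7% for siSelT-5. For siSelT-1 minus siSelT-5 it was recovered in 3.24%, and a difference of 1 in 66.5%. The share of false calls ran from 6.25% to 8.35% over the 4 contrasts.

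Members, lists and named genes were chosen with earlier results of these data known. All members are named, with up to 6 genes of each further list by smallest unadjusted p for both constructs, and for Egr1 and Dusp6 the 3 genes closest in pattern. Alternatives were centring, scaling, array weights (statmod 1.5.0), robust eBayes, looser filters, single probes, unnamed probes, a replicate block, a threshold of 0.1, single constructs and each array left out.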

Additional observations from a re-analysis of the deposited data

Results flagged for a closer look

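For Jun, both siSelT-1 arrays were above 0 and both siSelT-5 arrays below 0. Neither construct passed against vector on the deposited values (limma adjusted p = 0.256 for siSelT-1 and 0.306 for siSelT-5). The difference, siSelT-1 minus siSelT-5, was 0.38. The direct test of that difference did not pass (limma adjusted p = 0.179; 95% interval -0.05 to 0.81), and centred on the shared probes Jun was at 0.08 with siSelT-1 and at -0.55 with siSelT-5 (limma adjusted p = 0.676 and 0.0205).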

How the results depend on the processing

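For both constructs, the count of members called was 0 to 7 with 1 array left out; without siSelT-1 replicate 1 it was 0 and without siSelT-1 replicate 2 it was 3. For siSelT-1 it was 0 to 6 with 1 array left out, 1 where a value on 1 array of each construct sufficed, and 0 with a replicate block. For siSelT-5 it was 2 to 4 with 1 array left out, 2 with array weights and 0 when the siSelT-5 arrays were fitted alone over 9711 genes (2 at an unadjusted p under 0.05). For siSelT-1 minus siSelT-5 it moved with 1 array left out, and was 3 centred on all values, 1 centred and scaled, 1 with array weights and 2 at an adjusted p under 0.1. Centring on all values lowers the difference of every gene by the same amount. The medians it subtracts were 0.18 and 0.06 on siSelT-1 arrays and -0.22 and -0.19 on siSelT-5 arrays. Counts in this paragraph are not set beside the share of all genes called in the same fit. They show only how the calls of members move with the setting. Same-numbered replicates deviated with a correlation of 0.0758 over genes in only 2 pairs, so the numbers were not taken to pair the samples; with the replicate block 7 members passed for both constructs, 3 for siSelT-5 and 0 for the difference.

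Signs turned in 15 values of single members. Centred on shared probes, Jun was at -0.24 for both constructs, Ier3 at -0.015 for siSelT-1, Fosl2 and Phlda1 at -0.055 and -0.19 for siSelT-5, and the Klf6 difference at 0.19. Centred and scaled, these were -0.18 for Jun, -0.020 for Ier3, -0.049 for Fosl2 and -0.15 for Phlda1. Centred on all values, Egr1 and Jun were at 0.14 and 0.050 for siSelT-5. With 1 array left out, Jun for both constructs ran from -0.028 (without siSelT-5 replicate 2, as against -0.014 without siSelT-1 replicate 1) to 0.087, the Klf6 difference from -0.16 to 0.031 (without siSelT-1 replicate 1), and Egr1 for siSelT-5 reached 0.10 without siSelT-5 replicate 2. The rest kept their sign: 346 also kept their side of the threshold, 47 lost and 24 gained a call. The cause was not tested. Depth cannot be judged, since channel intensities were not used here.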

Other observations

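Other early and feedback genes were measured on the siSelT-5 arrays only, where the 7460 such probes had a median of -0.63 as a mean of the 2 arrays and 82.7% of them were below 0. They are given with no test. Of the growth factor feedback regulators 11 genes were measured in this way, with a median of -0.35, and 10 were below 0. The exception was Spry4, a Sprouty inhibitor of receptor tyrosine kinase signalling, at 0.75 and 0.82 on the 2 arrays, at percentile 98.8 of these probes, whereas its relative Spry2 was at -0.89 and -0.87. Dusp4, a nuclear ERK phosphatase, was at -1.05 and -1.07, and Dusp7, a cytoplasmic phosphatase related to Dusp6, at 0.18 and -0.20.

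Of the other immediate early transcription factors 8 were measured on these arrays only, all below 0, with a median of -1.08. The ETS factors Etv1 and Etv5 were at -1.73 and -1.27 and at -0.80 and -2.13. Egr3, a relative of Egr1, was at -0.98 and -0.82, and Cebpd, among the signalling and RNA-decay genes, at -2.42 and -2.30, at percentile 0.214. Of the receptor to ERK genes 9 were so measured and 8 were below 0, the lowest being Rps6ka3, an ERK-activated kinase, at -2.67 and -1.85. These genes were chosen for mention after their values were seen.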
